A study of Mus musculus with 2 samples.

Results

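miR-1247 is a microRNA encoded beside the deiodinase gene Dio3 on mouse chromosome 12, and its precursor gives the 2 mature members described here, mmu-miR-1247-5p and mmu-miR-1247-3p. They are 2 of the 1915 mature microRNA names in the deposited tables, found by their exact names. They were chosen by their reads in the diet comparison itself, since both arms were higher with ethanol in both tables, so that direction is how they were selected and not a finding.

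The libraries held small RNA of the livers of female C57BL/6 mice, aged 8 to 10 weeks, in a short-term model of alcoholic fatty liver. All mice took 5 days to adapt to the liquid Lieber-DeCarli control diet. The ethanol-fed mice then had this diet with 5% (v/v) ethanol for 10 days and were gavaged with ethanol at 6 g/kg on day 16. The pair-fed mice received control diet of equal calories and a gavage of isocaloric dextrin-maltose, and livers of both groups were taken 9 h after the gavage. The design statement of the series gives 16 days of ethanol feeding in place of 10. No transgene or gene deletion was part of these groups.

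There were 2 tables, named experiment 1 and experiment 2 here, and each compared 1 library of either diet. The labels list 1 sample per condition, and how many animals or pools stand behind a library is not given in the sources used here. Within a table there is no spread between animals. No test of the diets across the tables was made, because they were scaled separately and the arms were selected on their direction in both. Every interval below is a 95% interval that covers counting error only. The reads came from PCR products, and no molecular identifiers are described in the sources used here, so the true error is likely larger. Experiment 1 held 4170601 reads on microRNAs with pair feeding and 4311802 with ethanol. Experiment 2 was deposited as reads per 1000000 reads on microRNAs (RPM), and the steps between its low values gave an estimated 10811761 and 10819698 reads. It listed no value above 0 under 10 reads, whereas experiment 1 listed single reads. Levels of the diets were compared within a table, because the tables were made and scaled separately.

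A microRNA hairpin is cut from a longer transcript and trimmed to a short duplex of a 5p and a 3p arm. Usually the strand that is loaded into an Argonaute protein is kept, and its seed, the bases next to its 5′ end, pairs with target messenger RNAs. Mir1247 lies at the end of the imprinted Dlk1-Dio3 domain, a region that holds the protein-coding genes Dlk1, Rtl1 and Dio3, which are transcribed mainly from the paternal chromosome, and long noncoding RNAs and many microRNAs transcribed from the maternal one. Dio3 encodes the enzyme that inactivates thyroid hormone.

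The sequences of the mature arms and of the hairpin are shown because the reads of the arms were counted apart. They were taken from RefSeq (GRCm38.p6), 5′ to 3′. Capitals mark the seed, bases 2 to 8, in the mature arms, and the 5p arm and then the 3p arm in the hairpin.
miR-1247-5p: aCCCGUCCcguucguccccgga
miR-1247-3p: cGGGAACGucgagacuggagc
Mir1247 hairpin: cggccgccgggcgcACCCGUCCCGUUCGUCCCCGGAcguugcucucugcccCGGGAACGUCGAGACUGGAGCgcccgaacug

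The arms had different seeds. Apart from the arms themselves, none of the 1679 mature mouse microRNAs of the RefSeq table carried the seed of either arm, and none shared bases 2 to 7 with either. The hairpin was rich in G and C. These bases made up 74.4% of its 82 bases, against a median of 51.7% over 1005 mouse hairpins, and 98.4% of the hairpins had a lower share. They made up 72.7% of the 22 bases of the 5p arm and 66.7% of the 21 bases of the 3p arm. In the minimum free energy fold (-38.1 kcal/mol, RNAfold), 14 bases of each arm paired with the other arm.

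The hairpin lies on the minus strand at chr12:110278048-110278129 (GRCm38), the 5p arm at chr12:110278094-110278115 and the 3p arm at chr12:110278058-110278078. In the GENCODE vM21 annotation (GRCm38) all 82 bases fall in exon 1 of a transcript of Dio3os, a long noncoding RNA on the same strand that the annotation types as sharing a bidirectional promoter. A further Dio3os transcript overlaps 21 of the bases with its exon 1, and 2 of the 4 annotated Dio3os transcripts overlap the hairpin. Dio3 starts 938 bases beyond the hairpin, on the plus strand. The nearest other microRNA gene of the domain, Mir3072, lies 530087 bases away. Of the hairpins of the domain in the RefSeq table, 54 lie on the plus strand and 4, with Mir1247 among them, on the minus strand.

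miR-1247-5p was read at a low level in all 4 libraries. In experiment 1 it had 51 reads in the pair-fed library, which is 12.2 RPM (9.10 to 16.1), and 181 reads in the ethanol-fed library, which is 42.0 RPM (36.1 to 48.6). In experiment 2 it had an estimated 24 reads, 2.22 RPM (1.42 to 3.30), in the pair-fed and 47 reads, 4.34 RPM (3.19 to 5.78), in the ethanol-fed library. The ethanol-fed library was the higher one in each table, although by few reads in experiment 2, where the counting intervals met between 3.19 and 3.30 RPM.

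miR-1247-3p had 216 reads, 51.8 RPM (45.1 to 59.2), in the pair-fed and 370 reads, 85.8 RPM (77.3 to 95.0), in the ethanol-fed library of experiment 1. In experiment 2 these were 16 reads, 1.48 RPM (0.846 to 2.40), and 26 reads, 2.40 RPM (1.57 to 3.52). The intervals lay apart in experiment 1 and overlapped in experiment 2. All 8 values were above 0. In experiment 2, where the lowest value listed above 0 was 0.92 RPM, the interval of the 3p arm in the pair-fed library reached below that value.

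**Figure D1:**
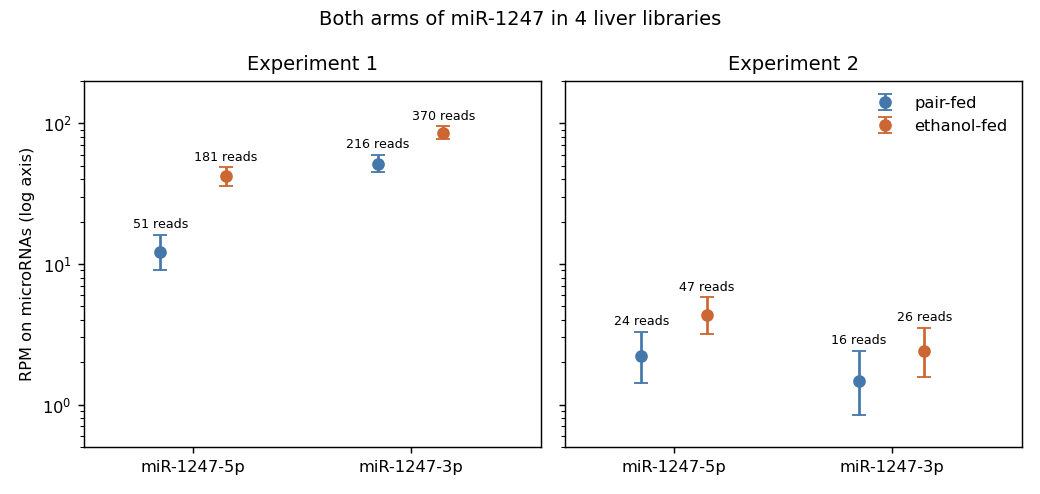
Level of each arm of miR-1247 in RPM (log axis) in the pair-fed and ethanol-fed library of each experiment, with 95% Poisson intervals of the counting error. The 3p arm is the higher one in experiment 1 (51.8 and 85.8 against 12.2 and 42.0 RPM), and both arms lie under 5 RPM in experiment 2.

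As the ratio of RPM with ethanol to RPM with pair feeding, miR-1247-5p was 3.43-fold higher (2.50 to 4.78) in experiment 1 and 1.96-fold higher (1.17 to 3.35) in experiment 2. miR-1247-3p was 1.66-fold higher (1.40 to 1.97) and 1.62-fold higher (0.839 to 3.24). The interval of the 3p arm in experiment 2 holds 1, so at this depth a difference of that arm was not detectable there. Summed over both arms, the reads were 1.996-fold higher (1.72 to 2.32) in experiment 1, from 267 to 551 reads, and 1.82-fold higher (1.22 to 2.75) in experiment 2, from 40 to 73 reads. On the log2 scale, with 1 read added to each library, the 5p arm stood at 1.76 and 0.94 and the 3p arm at 0.73 and 0.67.

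A 2-fold difference was common in these libraries. Among microRNAs with 10 or more reads summed over both libraries of the table, here called tested, 12.6% of 302 in experiment 1 and 10.7% of 469 in experiment 2 were at least 2-fold higher in the ethanol-fed library. Of the 2 arms, 1 reached this size in experiment 1 and 0 in experiment 2. By log2 ratio the 5p arm ranked 16 of 302 and 56 of 469, and the 3p arm 52 of 302 and 75 of 469. Few reads went with wide ratios. In experiment 2 the arms fell in the class of 10 to under 100 reads, where 22.2% of the 171 microRNAs were at least 2-fold higher. Of this class, 40 had a larger log2 ratio than the 5p arm and 44 a larger one than the 3p arm. Many of these larger ratios rest on a value listed at 0 with pair feeding and can be overstated, since no value above 0 under 10 reads was listed. With each 0 set to the lowest listed value of its library, the number at least 2-fold higher in experiment 2 fell from 50 to 22. In experiment 1 the arms were among the 76 microRNAs with 100 to under 1000 reads, where 9.21% were at least 2-fold higher. There 2 microRNAs had a larger log2 ratio than the 5p arm and 10 a larger one than the 3p arm.

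**Figure D2:**
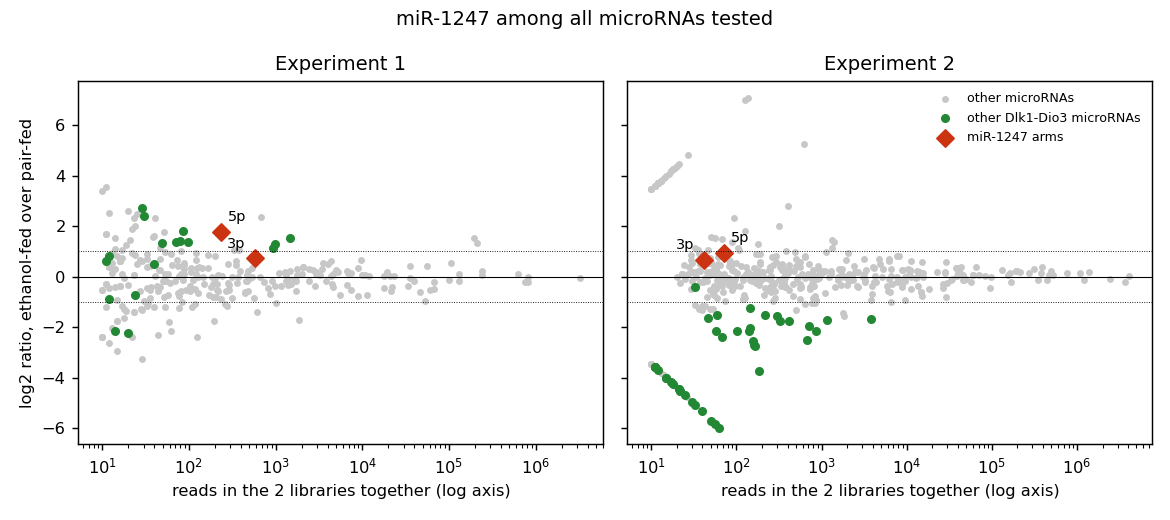
Log2 ratio of RPM, ethanol-fed to pair-fed (1 read added per library) against the reads in both libraries of a table together (log axis), for each tested microRNA and each experiment. The arms of miR-1247 have 232 and 586 reads in experiment 1 and 71 and 42 in experiment 2, where the ratios of other microRNAs with so few reads scatter widely. In experiment 2 no value above 0 under 10 reads is listed, so ratios with a value at 0 can be overstated and widen this scatter.

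The selection asked only that the log2 ratio be above 0 in both tables. Of the 283 microRNAs tested in both, 24.7% met that, so the direction alone was not rare. At the edge of the rule, miR-128-3p was just inside, at 0.48 in experiment 1 and 0.0074 in experiment 2, and miR-145a-5p just outside, at 1.05 and -0.0018. By the lower of its 2 ratios, miR-1247-5p ranked 2 of 283 and miR-1247-3p ranked 6. Of 71 precursors with both arms tested in both tables, 8.45% had both arms higher in both, and these 6 were miR-1247, miR-126a, miR-181c, miR-1843a, miR-338 and miR-345. The lowest of the 4 log2 ratios was 0.67 for miR-1247 and 0.46 for miR-345, the next. These ranks and this order use the ratios on which miR-1247 was chosen, so they describe the choice and lend it no support.

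The balance of the arms was not used to choose miR-1247. Each read is a whole mature microRNA, so no length correction was made. In experiment 1 the 3p arm was the major one: the 5p arm took 19.1% of the reads on both arms (14.6 to 24.3) in the pair-fed and 32.8% (28.9 to 36.9) in the ethanol-fed library. In experiment 2 the 5p arm had the larger count in both libraries, with 60.0% (43.3 to 75.1) and 64.4% (52.3 to 75.3). The interval of the pair-fed library of experiment 2 includes an even split.

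**Figure D3:**
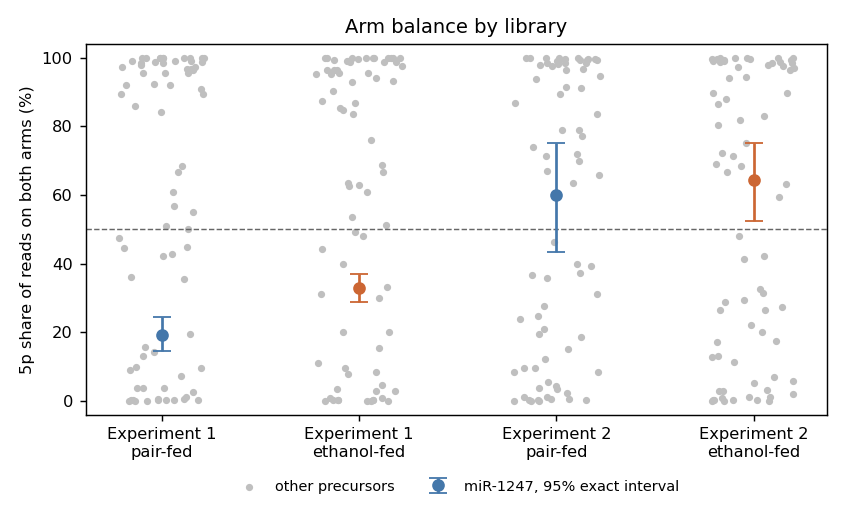
Share of the miR-1247 reads that fell on the 5p arm (percent of the reads on both arms) in the 4 libraries, with exact 95% binomial intervals of the counting error. Grey points are the other precursors with both arms read, and the dashed line marks equal reads on both arms. For miR-1247 the shares are 19.1% and 32.8% in experiment 1 and 60.0% and 64.4% in experiment 2, so the tables differ by more than the diets.

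From pair-fed to ethanol-fed, the odds of a 5p to a 3p read were 2.07 times as high in experiment 1 (1.44 to 3.01), a rise of 13.7 percentage points in the 5p share. In experiment 2 they were 1.20 times as high (0.502 to 2.86), a rise of 4.38 points that was not detectable at this depth. Between the tables the odds were 6.30 times as high in experiment 2 as in experiment 1 for the pair-fed libraries (2.97 to 13.7) and 3.69 times as high for the ethanol-fed ones (2.16 to 6.42). The arm balance thus differed between tables beyond counting error, while a shift with diet went beyond it in experiment 1 alone. Whether the shift itself differed between the tables was not tested.

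A shift of this size was found in other precursors too. The comparison took 73 precursors with both arms above 0 and at least 10 reads on both arms together in each of the 4 libraries. Of these, 11 had a larger rise of the 5p to 3p odds than miR-1247 in experiment 1 and 10 in experiment 2. Some of the larger rises in experiment 1 rest on few reads of an arm, such as miR-31-3p with 14 and 1 and miR-574-5p with 1 and 11. That of miR-145a rests on 119 reads or more of each arm in each library. No counting interval was computed for these other precursors. Counted in either direction and with miR-1247 itself, 23 and 31 of the 73 had a log2 change at least as large. The median log2 change was 0.069 and -0.082, against 1.04 and 0.27 for miR-1247. The major arm was opposite between the tables in 8 of the 73 (11.0%). From 3p in experiment 1 to 5p in experiment 2 went miR-1247, miR-145a and miR-338, and the other way went miR-126a, miR-221, miR-361, miR-423 and miR-664. What set the tables apart in arm balance was not tested.

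The level of miR-1247 differed between the tables more than between the diets. The 3p arm was listed 35.0-fold higher in the pair-fed and 35.8-fold higher in the ethanol-fed library of experiment 1 than of experiment 2. For the 5p arm these were 5.51-fold and 9.67-fold. These ratios cross tables that were scaled separately, and large differences between the tables were not particular to miR-1247. In the pair-fed libraries of experiments 1 and 2, miR-122-5p stood at 2971 and 182938 RPM and miR-10a-5p at 95953 and 6979 RPM. miR-802-5p differed little, at 121 and 111 RPM. How common such differences were over all microRNAs was not computed. Among the microRNAs listed above 0, the 3p arm ranked 103 of 395 and 87 of 436 by level in experiment 1 (pair-fed, then ethanol-fed), and 393 of 438 and 346 of 433 in experiment 2. The 5p arm ranked 156, 108, 360 and 298 in the same order of libraries. What set the tables apart in level was not tested, and whether library preparation and read assignment differed between them is not given in the sources used here. For the diets, a change in the share of cells with miR-1247 and a change in miR-1247 per cell cannot be told apart in bulk liver RNA.

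The other microRNAs of the Dlk1-Dio3 domain, a list taken from the annotation, mostly moved with miR-1247 in experiment 1 and moved against it in experiment 2. In experiment 1, 13 of the 17 tested were higher in the ethanol-fed library, where 48.7% of all 302 were. Of these, 10 were at least 2-fold higher (12.6% over all), while 2 of the 17 were at least 2-fold lower (12.9% over all). Their median log2 ratio was 1.31 (-2.22 to 2.71), against -0.013 over all tested. In experiment 2, 0 of 41 were higher, where 50.3% of all 469 were, and 40 were at least 2-fold lower (15.1% over all). Their median was -2.73 (-5.98 to -0.42), against 0.0026 over all. Of the 41, 19 were listed at 0 in the ethanol-fed library, and the 22 above 0 in both libraries had a median of -1.99, with 0 of them higher. The 41 include both arms of miR-299a and miR-299b, whose hairpins lie on opposite strands and whose reads were nearly equal. With pair feeding and ethanol, the 3p arms had an estimated 145 and 21 against 141 and 21 reads. Their 5p arms had 21 and 0 each. Whether the same reads were listed under both names was not tested, and the sums below take them as listed.

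**Figure D4:**
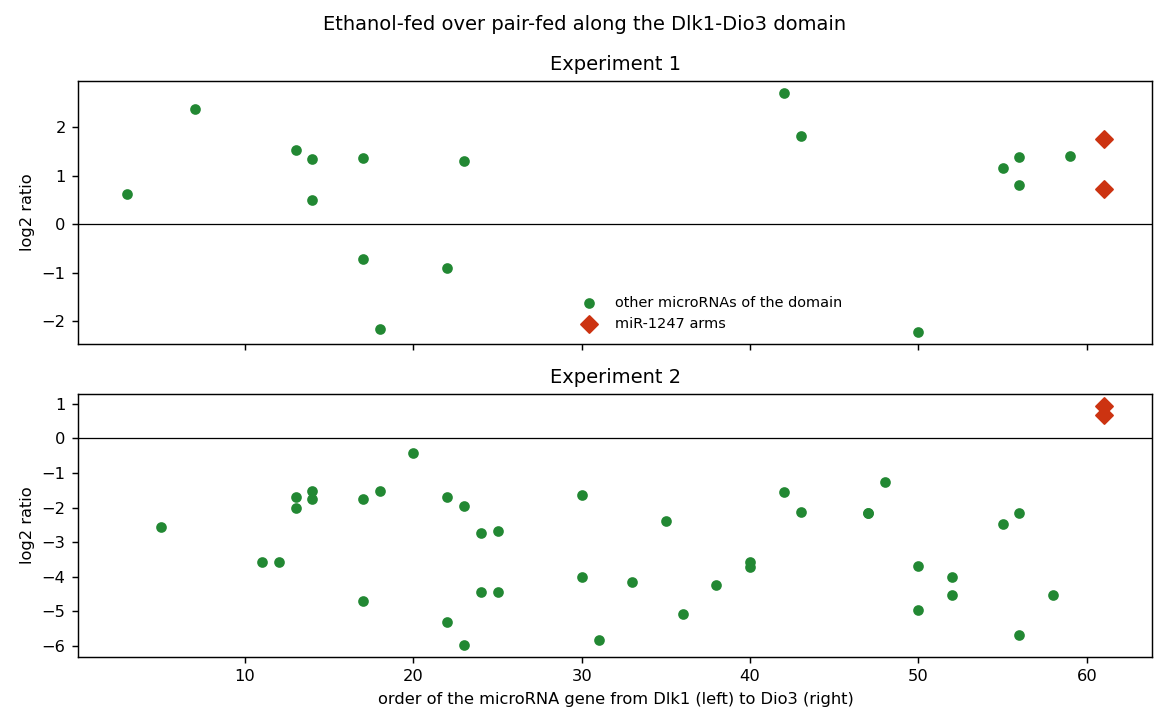
Log2 ratio of RPM, ethanol-fed to pair-fed, for the tested microRNAs of the Dlk1-Dio3 domain, in their order along chromosome 12 from Dlk1 to Dio3 (by rank, not to scale), with the arms of miR-1247 at the end. The points of experiment 1 lie mostly above 0, those of experiment 2 all below 0 except the arms of miR-1247, at 0.94 and 0.67.

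The reads of all these microRNAs together went from 1116 to 2887 in experiment 1, which is 2.50-fold higher in RPM (2.33 to 2.68), and from an estimated 8352 to 2146 in experiment 2, which is 3.89-fold lower (3.71 to 4.09). miR-1247 therefore made up 19.3% of the reads of the domain with pair feeding and 16.0% with ethanol in experiment 1, but 0.477% and 3.29% in experiment 2. The odds of a miR-1247 read against a read of the rest of the domain were 0.798 times as high in the ethanol-fed library of experiment 1 (0.677 to 0.942) and 7.10 times as high in experiment 2 (4.75 to 10.8). These odds use the reads on which miR-1247 was selected, so they are a description. In experiment 1 the arms differed. The 5p arm was 3.43-fold higher (2.50 to 4.78) and the rest of the domain 2.50-fold (2.33 to 2.68), so their counting intervals overlapped. Of the 17 others, 3 were at least as high as the 5p arm by log2 ratio. The 3p arm, at 1.66-fold (1.40 to 1.97), lay below the rest of the domain. It had 4.24 and 2.04 times the reads of the 5p arm in the 2 libraries. Of the 14 other domain microRNAs tested in both tables, 0 were higher in both. Some of the 14 did not reverse but were lower in both, on few reads in experiment 1. By log2 ratio in experiments 1 and 2, these were miR-136-5p (-0.73 and -4.70), miR-341-3p (-2.16 and -1.52), miR-379-5p (-0.90 and -1.71) and miR-485-5p (-2.22 and -3.70).

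The 3 domain microRNAs with the most reads in experiment 1 show the same reversal. miR-127-3p, which is antisense to Rtl1, had 367 and 1092 reads in experiment 1, 2.88-fold higher, and 272 and 84.7 RPM in experiment 2, 3.21-fold lower. miR-411-5p had 278 and 712 reads, 2.48-fold higher, and then 52.4 and 13.4 RPM, 3.91-fold lower. miR-541-5p had 283 and 652 reads, 2.23-fold higher, and then 53.4 and 9.43 RPM, 5.66-fold lower. In experiment 1 each of these moved in the direction of miR-1247, and in experiment 2 each moved in the other direction. Among the neighbours at the Dio3 end, miR-410-3p had 21 and 59 reads in experiment 1, 2.72-fold higher, and was listed at 0 in experiment 2. miR-3072, the nearest, was listed at 0 in both libraries of experiment 2. In experiment 2 the domain member closest to no difference was miR-370-3p, with an estimated 19 and 14 reads.

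**Figure D5:**
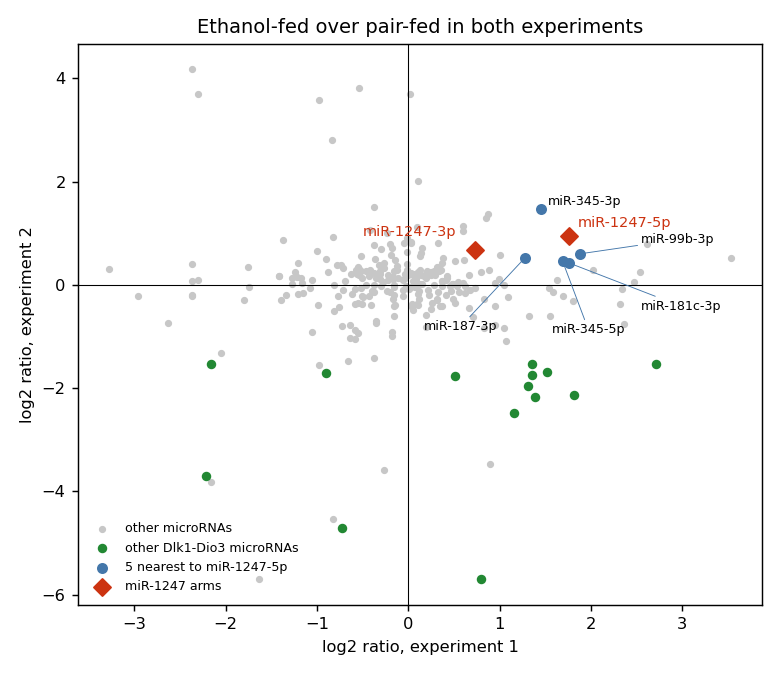
Log2 ratio of RPM, ethanol-fed to pair-fed, in experiment 1 (x axis) and experiment 2 (y axis) for the 283 microRNAs tested in both. Both arms of miR-1247 lie in the upper right part, and the 14 other Dlk1-Dio3 microRNAs all lie under 0 in experiment 2.

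The 5 microRNAs whose pair of log2 ratios lay closest to that of miR-1247-5p, over these 2 tables and 283 microRNAs, were miR-99b-3p, miR-345-5p, miR-181c-3p, miR-345-3p and miR-187-3p, at Euclidean distances of 0.361, 0.485, 0.517, 0.609 and 0.645. The closest, miR-99b-3p, stood at 1.88 and 0.60, with 4 and 18 reads in experiment 1 and 20.4 and 30.9 RPM in experiment 2. These distances rest on 2 ratios each and, in experiment 1, on few reads: miR-345-5p had 2 and 9, miR-345-3p 5 and 16, and miR-187-3p 5 and 14, while miR-181c-3p had 11 and 41.

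Marker microRNAs of other cell types moved between the libraries as well, and their part in the values of miR-1247 was not tested. The hepatocyte list (miR-122-5p, miR-192-5p and miR-802-5p) summed to 391253 and 375434 RPM in experiment 1 and 300367 and 266566 RPM in experiment 2 (pair-fed, then ethanol-fed), with 1 of 3 higher in each. In experiment 1 nearly all of that sum was miR-192-5p, at 388161 and 373090 RPM. miR-122-5p, the defining microRNA of hepatocytes, stood at 2971 and 2210 RPM there, against 182938 and 156660 RPM in experiment 2, and miR-802-5p lay between 111 and 182 RPM in all 4 libraries. All 4 red cell microRNAs were higher with ethanol in experiment 1 (summed 11559 to 33915 RPM, median log2 ratio 1.68), and all 4 were lower in experiment 2 (1826 to 1152 RPM, -0.68). The 2 endothelial microRNAs, which are the 2 arms of the single precursor miR-126a, were both higher in both tables. Their median log2 ratio was 0.34 (3854 to 5142 RPM) and 0.20 (22335 to 26332 RPM). The striated muscle microRNAs that were tested were also higher in both tables, though not every one of that list was tested. In experiment 1 this rests on miR-133a-3p alone, with 2 reads with pair feeding and 18 with ethanol.

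The RPM sums of the lists also take in members that were not tested, while the medians cover only those tested. White cell microRNAs were lower in both tables, 5 of 5 tested in experiment 1 (417 to 346 RPM, median -0.55, with miR-155-5p at 0 in a library) and 6 of 6 in experiment 2 (898 to 481 RPM, -0.82). In the pancreas list, 1 of 4 was tested in experiment 1 and was lower. This was miR-375-3p (85.1 to 47.5 RPM, log2 ratio -0.84), with miR-216b-5p at 0 in a library and miR-217-5p and miR-216a-5p not listed. In experiment 2 all 4 were higher (5.92 to 113 RPM, 6.13), with miR-216a-5p and miR-216b-5p at 0 in a library. Epithelial microRNAs were higher in 2 of 4 tested (median 0.0043) and in 5 of 5 (519 to 887 RPM, 0.81). In experiment 1 the sum of all 5 went from 61.4 to 61.9 RPM, and in it the untested miR-200c-3p went from 0 to 1.39 RPM. Mesenchymal microRNAs were higher in 4 of 5 (96550 to 96122 RPM, 0.62) and in 2 of 5 (19700 to 24782 RPM, -0.0018). Of the striated muscle list, 1 was tested and higher in experiment 1 (0.480 to 4.17 RPM, 2.61) and 2 in experiment 2 (71.95 to 115 RPM, 0.73), with miR-206-3p at 0 in experiment 2 and neither miR-206-3p nor miR-1a-3p listed in experiment 1. In experiment 2 miR-1a-3p stood at 69.9 and 111 RPM.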

How the data were processed

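The values of experiment 1, as deposited, are raw read counts for 484 mature microRNAs. Those of experiment 2 are RPM as scaled by the authors, for 1915 microRNAs, and sum to 999899 and 999896. A read was taken as the step between low values, 0.0925 RPM with pair feeding and 0.0924 RPM with ethanol. Of the values under 50 RPM, 96.9% and 96.5% were whole multiples of it within 0.0055 RPM. The build named in the submitters' processing notes is mm8, and the aligner and annotation are not given in the sources used here. Columns with the authors' log2 fold change and p-value were not used. Columns were assigned by name, with 0 left over.

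Levels have exact Poisson intervals, ratios the Clopper-Pearson interval of the ethanol-fed share of the reads, and arm shares exact binomial ones. A log2 ratio added 1 read per library and was computed at 10 reads or more in the 2 libraries together. Ratios understate changes of low microRNAs, and values listed at 0 can overstate them. Odds ratios are conditional, with exact intervals. The computation was tested on simulated data. Domain members were all microRNA genes from Dlk1 to Dio3 and Mir1247 (RefSeq, GRCm38.p6), with 4 names added by gene symbol. Of the names, 421 of 484 and 1623 of 1915 matched the RefSeq sequences. Named were both arms, the 5 nearest microRNAs, the 3 domain microRNAs with the most reads in experiment 1, those next to Mir1247 and the markers. miR-370-3p, the precursors named for their arms and those at the edge of the selection were named after their values were seen. So were miR-10a-5p, miR-299a, miR-299b and the domain microRNAs named as lower in both tables. Members and lists were chosen with earlier results of these data known. Folding used RNAfold of ViennaRNA 2.7.2, statistics scipy 1.17.1 and pandas 2.3.3 with numpy 2.4.6 in Python 3.11.15, and plots matplotlib 3.10.9.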

Additional observations from a re-analysis of the deposited data

Results flagged for a closer look

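The other microRNAs of the Dlk1-Dio3 domain stood out because their summed level moved in opposite directions in the 2 tables. Ethanol-fed over pair-fed, it was 2.50-fold in experiment 1 and 0.257-fold in experiment 2. The difference between the tables was not tested.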

How the results depend on the processing

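The labels give 1 sample per condition and no number that pairs libraries, and no fit with the 2 tables as pairs was made. All 30 alternative log2 ratios of miR-1247 (scaling, pseudocount and, in experiment 2, values listed at 0) lay within the counting interval: 1.68 to 1.81 and 0.84 to 0.97 for the 5p arm in experiments 1 and 2, 0.69 to 0.77 and 0.56 to 0.70 for the 3p arm. No value of miR-1247 was 0, so replacing the values listed at 0 could not change its ratios and is no check of them. The number of microRNAs at least 2-fold higher was less stable. In experiment 1 it was 38, 99 with no minimum and 10 with a minimum of 100 reads. In experiment 2 it was 50, 12 with that minimum and 22 when the lowest listed value replaced each 0. With alternatives chosen after seeing the data, the median log2 ratio of the other domain microRNAs in experiment 2 went from -2.73 to -1.99 over those above 0 in both libraries and to -2.01 at a minimum of 100 reads (17 microRNAs, 0 higher). In experiment 1 that minimum left 3, all higher. Depth limits the 3p arm of experiment 2 most, with 42 reads in all.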

Other observations

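Some precursors with far more reads than miR-1247 also had the opposite major arm in the 2 tables. The 5p share of miR-126a, an endothelial microRNA, was 92.4% of 16075 reads in the pair-fed library of experiment 1 and 5.55% of an estimated 241503 reads in that of experiment 2. For miR-145a, a smooth muscle microRNA, it was 15.6% of 762 reads and 74.0% of 7637. In the ethanol-fed libraries these shares were 93.2% and 5.26% for miR-126a and 33.2% and 66.7% for miR-145a. The cause was not tested.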
